A study of Mus musculus with 2 samples.

Results

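Expression of 9 genes of the complement system, C1qa, C1qb, C1qc, C1ra, C1s1, C4b, C3, Cfb and Serping1, was followed through the cells of a hepatic stellate cell preparation. They are a list of gene names that sets no threshold on measured values, drawn up with earlier results of these data known, and all 9 were found among the 31054 features of the count tables. Hepatic stellate cells (HSCs) are the liver's vitamin A-storing mesenchymal cells and its main source of scar collagen. They were isolated by enzyme perfusion and a density gradient from male mice on a C57BL/6 background, and 10x 3' v3.1 single-cell libraries were made from them. The comparison asks how complement transcripts in the liver's non-parenchymal cells differ once hepatocytes with high p16 expression have been removed.

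There were 2 libraries, 1 per genotype, and mice of both genotypes had received CCl4 for 4 weeks together with tamoxifen and diphtheria toxin (DT). The control, p16-LRTD, combines p16-CreERT2 with an R26-CAG-LSL-RSR-tdTomato-2A-DTR allele. This reporter, which also encodes the DT receptor, sits behind separate stop cassettes for Cre and Dre, and these mice have no Dre. The p16-Alb-LRTD mice carry in addition Alb-DreERT2, which puts Dre under the hepatocyte albumin promoter, so that DT can kill hepatocytes that have expressed p16. The number and age of the mice behind each library are not given in the sources used here. Pairs of values below give p16-LRTD (the control) first and p16-Alb-LRTD second, and log2 ratios are p16-Alb-LRTD over the control. With 1 library per genotype nothing could be tested, and every interval below is a 95% interval of counting error only, without the spread between mice or preparations.

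As background, complement is a cascade of plasma proteins that tags and lyses targets and draws in phagocytes. C1q, a bundle of A, B and C chains, recognises its targets and switches on the proteases C1r and C1s, which cleave C4 and C2. C3 is the component on which all routes converge, factor B (Cfb) drives the amplifying alternative route, and C1 inhibitor (Serping1) blocks C1r and C1s. Most circulating complement comes from hepatocytes, whereas C1q is known as a product of macrophages, in the liver the resident Kupffer cells.

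Coordinates are from GENCODE vM21 on GRCm38, the build of the deposited counts. The C1q chains form a cluster on chromosome 4, with C1qb at chr4:136880129-136886187, C1qc at chr4:136889804-136893065 and C1qa at chr4:136895917-136898803, all on the minus strand. C1ra (chr6:124512405-124523443, plus strand) and C1s1 (chr6:124530345-124542359, minus strand) are neighbours. C4b (chr17:34728380-34743882, minus strand) and Cfb (chr17:34856374-34862518, minus strand) lie near each other. C3 lies at chr17:57203970-57228136 and Serping1 at chr2:84765387-84775444, both on the minus strand. C4b has a near-identical neighbour, C4a, which was not analysed here, and C1ra and C1s1 have the near-copies C1rb and C1s2, so that reads of these genes may have been split. Cfb overlaps the read-through gene Gm20547 on the same strand, which drew 4 and 0 UMIs in stellate cells, and C1s1 overlaps Gm16567 on the opposite strand.

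RefSeq promoter windows (GRCm38.p6) were found for 5 of the 9 members. The 250 bases before the start are shown for C1qb and C1qc, most of whose UMIs lay in Kupffer cells, and for C3, most of whose UMIs lay in fibroblast or mesothelial cells. All run 5′ to 3′ on the minus strand, with matches to the searched motifs in capitals. The RefSeq start of C1qc lies inside the span GENCODE gives that gene.
C1qb, chr4:136886201-136886450: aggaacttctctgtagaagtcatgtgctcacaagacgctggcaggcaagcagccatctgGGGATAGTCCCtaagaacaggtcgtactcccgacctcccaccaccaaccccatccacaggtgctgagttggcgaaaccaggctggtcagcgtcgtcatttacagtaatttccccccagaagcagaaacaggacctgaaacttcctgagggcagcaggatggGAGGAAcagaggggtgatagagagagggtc
C1qc, chr4:136892915-136893164: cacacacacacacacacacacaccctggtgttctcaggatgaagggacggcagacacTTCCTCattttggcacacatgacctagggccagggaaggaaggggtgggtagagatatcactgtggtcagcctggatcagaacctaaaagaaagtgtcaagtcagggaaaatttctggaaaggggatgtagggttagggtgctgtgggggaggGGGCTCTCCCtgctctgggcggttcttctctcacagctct
C3, chr17:57228137-57228386: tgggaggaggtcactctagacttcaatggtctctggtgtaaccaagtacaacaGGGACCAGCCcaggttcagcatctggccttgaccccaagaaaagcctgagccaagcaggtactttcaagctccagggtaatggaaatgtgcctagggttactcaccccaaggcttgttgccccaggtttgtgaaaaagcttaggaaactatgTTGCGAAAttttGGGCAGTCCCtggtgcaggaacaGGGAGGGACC

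The windows were searched on both strands for 7 motifs: the PU box core GAGGAA, the GAS motif TTCNNNGAA, the ISRE core (GAAA, any 2 bases, GAAA), the C/EBP motif TTGCNNAA, the NF-kappaB motif (GGGA, any 4 bases, CC), the CCAAT box CCAAT and the TATA box TATAAA. The PU box core, a motif bound by the macrophage factor PU.1, stood 30 bases before the C1qb start and 193 bases before the C1qc start, and 28.3% of 32851 windows, each from 250 bases before to 50 after a RefSeq start, hold it. It also stood 44 bases after the start of C1ra, most of whose UMIs lay in stellate cells. C3 had a C/EBP match 45 bases before its start, which 10.8% of windows share. C1ra had such a match 16 bases after its start, and 1 of the 2 C1s1 windows had it 242 bases before. A GAS match, in 8.30% of windows, lay 32 bases after the C1ra start. A TATA box, in 13.6% of windows, lay 14 bases after the C3 start. NF-kappaB matches lay at 33, 10 and 197 bases before the C3 start, at 40 bases before that of C1qc and, overlapping each other, at 190 and 191 bases before that of C1qb. Both windows of C1s1 held a match as well. The NF-kappaB motif is in 20.7% of windows. No ISRE core, in 3.44% of windows, and no CCAAT box, in 37.4%, was found in the 6 windows of the members (C1s1 has 2). These letters are a description of the windows and were not linked to any measured difference.

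The libraries held 11149 barcodes (p16-LRTD) and 8806 (p16-Alb-LRTD), with 193746596 and 162219167 unique molecular identifiers (UMIs, counted transcript molecules), and 95 barcode sequences occurred in both. The filters kept 9004 and 7416 cells. Cells were put into classes by the summed UMIs of marker genes per 10000 UMIs. There were 7852 and 6621 stellate cells (Lrat, Ecm1, Hgf and Reln, at least 15), 430 and 283 endothelial cells (Kdr, Stab2 and Ptprb, at least 8) and 283 and 178 Kupffer cells (Clec4f, Cd5l, Vsig4 and Csf1r, at least 8). Cells past more than 1 of these gates, 245 and 221, were left out of the classes. The names were checked on genes the gates did not use, by their summed CPM (a gene's UMIs scaled to 1000000 UMIs of the class). The 7 further stellate genes summed to 25664 and 28643 CPM in stellate cells and to at most 456 CPM in the other 2 classes. The 8 further endothelial genes summed to 8645 and 7586 CPM in endothelial cells and to at most 758 CPM elsewhere, and the 8 further Kupffer genes to 10452 and 10558 CPM in Kupffer cells and to at most 280.4 CPM elsewhere. A gate on Dpt, Mgp and Igfbp6 (at least 8) marked fibroblast or mesothelial cells, of which 77 and 28 passed no other gate. In those cells the 7 further stellate genes summed to 10507 and 10166 CPM, with the highest gene at 10149 and 9876 CPM. In stellate cells the highest of the 7 was at 18430 and 22186 CPM.

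The 9 genes fell into 3 patterns by the cells that held their UMIs. Stellate cells, 87.2% and 89.3% of kept cells in the control and p16-Alb-LRTD, held 93.8% and 94.4% of C1ra, 88.7% and 92.5% of C1s1, 88.3% and 92.3% of C4b, 87.4% and 83.7% of Cfb and 95.4% and 95.9% of Serping1 UMIs. Kupffer cells, 3.14% and 2.40% of kept cells, held between 74.3% and 85.6% of the UMIs of the C1q chains. C3 was in neither group. The 77 and 28 cells with fibroblast or mesothelial genes and no other gate, 0.855% and 0.378% of kept cells, held 58.9% and 57.4% of all C3 UMIs, and stellate cells 23.2% and 24.7%.

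**Figure D1:**
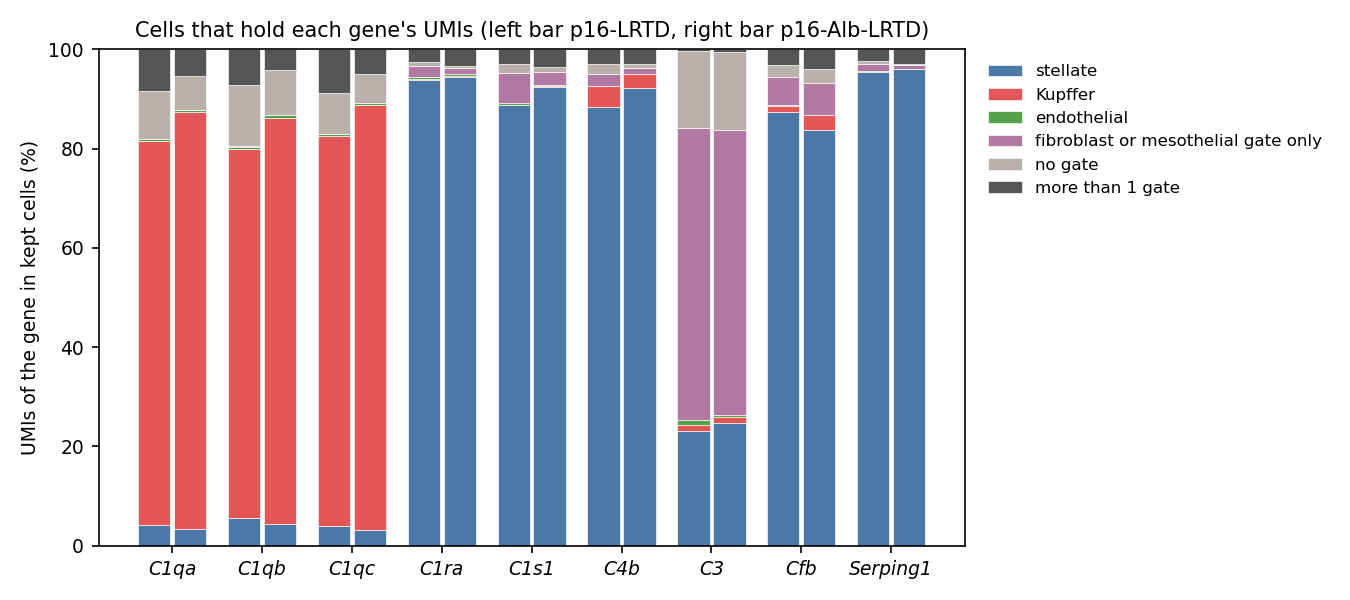
Share of each gene's UMIs (%, vertical axis) found in 6 groups of kept cells, for p16-LRTD (left bar) and p16-Alb-LRTD (right bar). The C1q bars are mostly Kupffer cells, the C3 bars mostly cells with fibroblast or mesothelial genes (58.9% and 57.4%), and the other 5 genes mostly stellate cells.

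**Figure D2:**
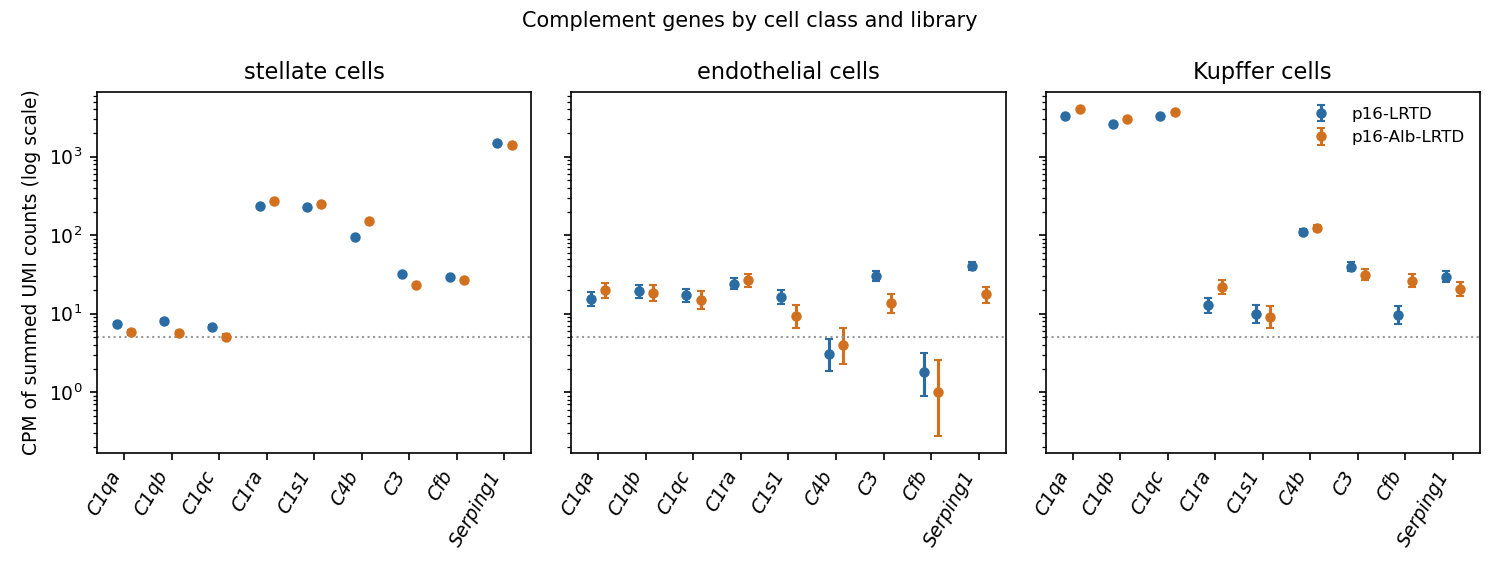
Level of each gene (CPM of summed UMIs, log axis) in stellate, endothelial and Kupffer cells of both libraries, with 95% Poisson intervals of counting error. The dotted line marks 5 CPM. The C1q chains are between 2593 and 4058 CPM in Kupffer cells and at most 19.8 CPM in the other classes, while C4b lies between 95.7 and 150.3 CPM in both stellate and Kupffer cells.

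Between the libraries, a gene was called higher or lower when its CPM differed by at least 1.5-fold at a mean of at least 5 CPM. In stellate cells all 9 members reached that level, 1 (C4b) was called higher in p16-Alb-LRTD and 0 lower, where 3.03% of 10179 genes were called higher and 3.05% lower. In Kupffer cells all 9 reached it, 2 (Cfb and C1ra) were called higher and 0 lower, against 5.21% and 6.83% of 9514 genes. In endothelial cells 7 reached it, 0 were called higher and 3 (C3, C1s1 and Serping1) lower, against 6.44% and 13.5% of 9858 genes. The median log2 ratio of the members that reached the level was -0.12 in stellate, -0.19 in endothelial and 0.20 in Kupffer cells, and that of all genes -0.05, -0.10 and -0.06.

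**Figure D3:**
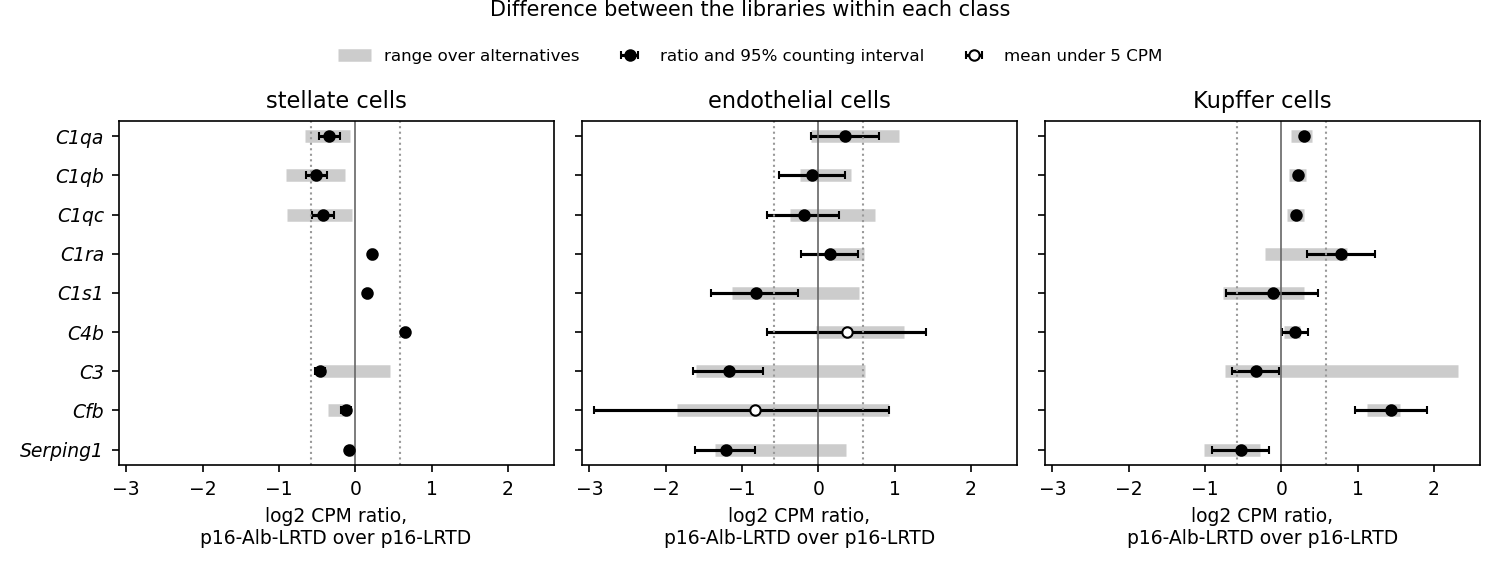
Log2 ratio of CPM, p16-Alb-LRTD over p16-LRTD, for each gene in the 3 classes. Points carry 95% counting intervals, open points had a mean under 5 CPM, grey bars span the alternatives to the processing, and dotted lines mark 1.5-fold. C4b in stellate cells (0.62 to 0.70 over the alternatives) and Cfb in Kupffer cells (1.12 to 1.56) stay past the line, whereas the bars of C3 cross 0 in all 3 classes.

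C1qa, C1qb and C1qc encode the chains of C1q, the recognition unit of the classical route. In Kupffer cells C1qa was at 3317 CPM in the control and 4058 CPM in p16-Alb-LRTD (log2 ratio 0.29, interval 0.26 to 0.32). C1qb was at 2593 and 3028 CPM (0.22, interval 0.19 to 0.26), and C1qc at 3273 and 3750 CPM (0.20, interval 0.17 to 0.23). All 3 chains were thus slightly higher in p16-Alb-LRTD, beyond counting error but well under 1.5-fold.

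The levels of the chains also went together from cell to cell. Over Kupffer cells within a library, the log-normalised level of C1qa correlated with that of C1qc at r = 0.83 in 283 and r = 0.87 in 178 cells, and with that of C1qb at 0.68 and 0.70, the highest values for C1qa among 5922 genes. Cells share their library and differ in depth, so these values are descriptions. After thinning each cell to 5000 UMIs, every one of 278 Kupffer cells of the control had a C1qb UMI, as had 99.4% of 177 in p16-Alb-LRTD.

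Beside the C1q difference, the Kupffer class differed in its macrophage makeup. Of 8 genes of infiltrating macrophages, 7 reached 5 CPM, and of these 5 were called lower in p16-Alb-LRTD and 0 higher, with a summed level of 1863 CPM against 785 CPM. Gpnmb, a lipid-associated macrophage gene, was at 717 and 109 CPM. Of 8 Kupffer genes outside the gate, 2 were called higher and 0 lower, with a median log2 ratio of 0.27 and a summed level of 10452 and 10558 CPM. Their ratios ran from -0.42 (Lyz2, at 3903 and 2917 CPM) to 1.52 (Marco, at 508 and 1461 CPM). Without cells that had at least 2 UMIs of Gpnmb, Trem2, Spp1 and Ccr2 per 10000 (148 and 118 cells left), a choice made after seeing the data, the C1q ratios were 0.13, 0.10 and 0.07 for C1qa, C1qb and C1qc. The C1q differences were thus smaller, and in the same direction, without those cells.

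In stellate and endothelial cells the C1q chains were low, whereas kept cells past no gate at all, 117 and 85 of them, held between 5.76% and 12.5% of the C1q UMIs. In stellate cells C1qa was at 7.39 and 5.84 CPM, C1qb at 8.06 and 5.67 CPM and C1qc at 6.82 and 5.09 CPM, between 0.14% and 0.31% of their Kupffer levels. In endothelial cells they lay between 15.1 and 19.8 CPM. After thinning, a C1qa UMI was seen in 3.23% (2.85% to 3.64%) and 2.66% (2.29% to 3.08%) of stellate cells, against 4.31% and 7.07% of endothelial cells, at median depths of 17024.5 and 18136 UMIs in stellate and 11781 and 11992 UMIs in endothelial cells. Without thinning the stellate shares were 9.81% and 9.33%. The stellate shares are at or below those of endothelial cells, so no expression by stellate cells is read from them, and the source of these UMIs was not tested.

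A small number of stellate cells carried much of the C1q counted in that class. The 79 stellate cells (1%) of p16-LRTD richest in C1qb held 40.96% of its stellate UMIs, and the 67 richest of p16-Alb-LRTD held 25.95%. C1qa and C1qc were found in the same thinned stellate cell 3.14 and 2.52 times as often as the product of their shares. With cells past more than 1 gate kept, all 3 chains were called lower in stellate cells of p16-Alb-LRTD, with log2 ratios of -0.66, -0.91 and -0.89. Among stellate cells of 10000 to 30000 UMIs the ratios were -0.07, -0.14 and -0.05, and with equal shares of the collagen ranges described below for C4b they were -0.46, -0.65 and -0.61. Within those ranges they were -0.75, -0.99 and -0.95 in the low, -0.51, -0.79 and -0.62 in the middle and 0.01, 0.02 and -0.06 in the high range. In the cells past more than 1 gate, C1qa itself was at 355 and 181 CPM.

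C1ra and C1s1 encode the proteases that C1q activates. In stellate cells C1ra was at 233 CPM in the control and 271 CPM in p16-Alb-LRTD (log2 ratio 0.22, interval 0.20 to 0.24). C1s1 was at 227 and 252 CPM, a log2 ratio of 0.15 (0.13 to 0.17). Both were thus a little higher in p16-Alb-LRTD and stayed so under all 12 alternatives, between 0.18 and 0.26 for C1ra and between 0.12 and 0.20 for C1s1.

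Both proteases were spread over most stellate cells. At 5000 UMIs, 69.1% and 72.5% of stellate cells had a C1ra UMI, and 66.6% and 70.1% a C1s1 UMI. In endothelial cells C1ra was at 24.2 and 26.9 CPM and in Kupffer cells at 12.8 and 21.9 CPM. That Kupffer difference, a log2 ratio of 0.78 (0.33 to 1.23) on 76 and 98 UMIs, was called higher. It turned to -0.21 once cells past more than 1 gate were kept, and was 0.49 among cells of 10000 to 30000 UMIs, under 1.5-fold.

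Serping1, which encodes C1 inhibitor, marked nearly all stellate cells. Its level there was 1493 CPM (1487 to 1500) in the control and 1411 CPM (1405 to 1418) in p16-Alb-LRTD (log2 ratio -0.08, interval -0.09 to -0.07), and 99.6% and 99.5% of thinned cells had a UMI. The difference is larger than counting error and small against the calling threshold. Endothelial and Kupffer cells had between 1.25% and 2.73% of the stellate level.

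The genes most like Serping1 across stellate cells, by the lower of the r values within each library over 6341 genes, were Bgn (0.45 and 0.49), Itm2b (0.44 and 0.49), Igfbp7 (0.41 and 0.44), B2m (0.40 and 0.48) and H2-D1 (0.37 and 0.47). Serping1 was in turn the gene most like both C1s1 (0.22 and 0.21) and C1ra (0.25 and 0.28). C1ra was next after Serping1 for C1s1, at 0.18 and 0.17.

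C4b encodes complement component C4, the first substrate of C1s. It was the member with the clearest difference in stellate cells, at 95.7 CPM (94.1 to 97.3) in the control and 150.3 CPM (148 to 152) in p16-Alb-LRTD, that is 13649 and 18809 UMIs and a 1.57-fold ratio (log2 0.65, interval 0.62 to 0.68). At 5000 UMIs, 31.8% (30.8% to 32.9%) and 41.4% (40.2% to 42.6%) of stellate cells had a C4b UMI, where unthinned shares were 58.1% and 70.2% and those of thinned endothelial cells 1.67% and 1.41%. Cells with 3 or more UMIs after thinning made up 4.24% and 9.09%. The higher level in p16-Alb-LRTD was thus seen both in the sum and in the number of cells.

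The C4b difference was larger in cells with more collagen transcripts. Stellate cells of both libraries were divided into 3 equally large ranges of Col1a1, Col1a2 and Col3a1 UMIs per 10000. In the low range C4b was at 100.4 and 125 CPM, a log2 ratio of 0.32 (0.26 to 0.38). In the middle range it was at 108 and 152 CPM (0.50, interval 0.45 to 0.56). In the high range it was at 87.7 and 196 CPM (1.16, interval 1.10 to 1.21). From low to high the level was successively higher in p16-Alb-LRTD, whereas in the control the high range had the lowest C4b. The ranges are unequally filled, since 44.7% of stellate cells of the control and 19.9% of p16-Alb-LRTD were in the high range.

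C4b was also a transcript of Kupffer cells. Its level there was 109.5 CPM (101 to 118) in the control and 124 CPM (114 to 135) in p16-Alb-LRTD, 114% and 82.5% of the stellate level, and 34.9% and 35.6% of thinned Kupffer cells had a UMI. Serping1, C1s1 and C1ra stood at no more than 8.08% of their stellate levels in the same cells, so the ratio of Kupffer to stellate level was far higher for C4b than for these 3 genes. Endothelial cells had 19 and 16 C4b UMIs in all, or 3.09 and 4.02 CPM. Among stellate cells the genes most like C4b were Igfbp4 (r = 0.31 and 0.28), Wt1 (0.23 and 0.28), C3 (0.22 and 0.24), Gas6 (0.22 and 0.28) and Plxna4 (0.21 and 0.31).

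**Figure D4:**
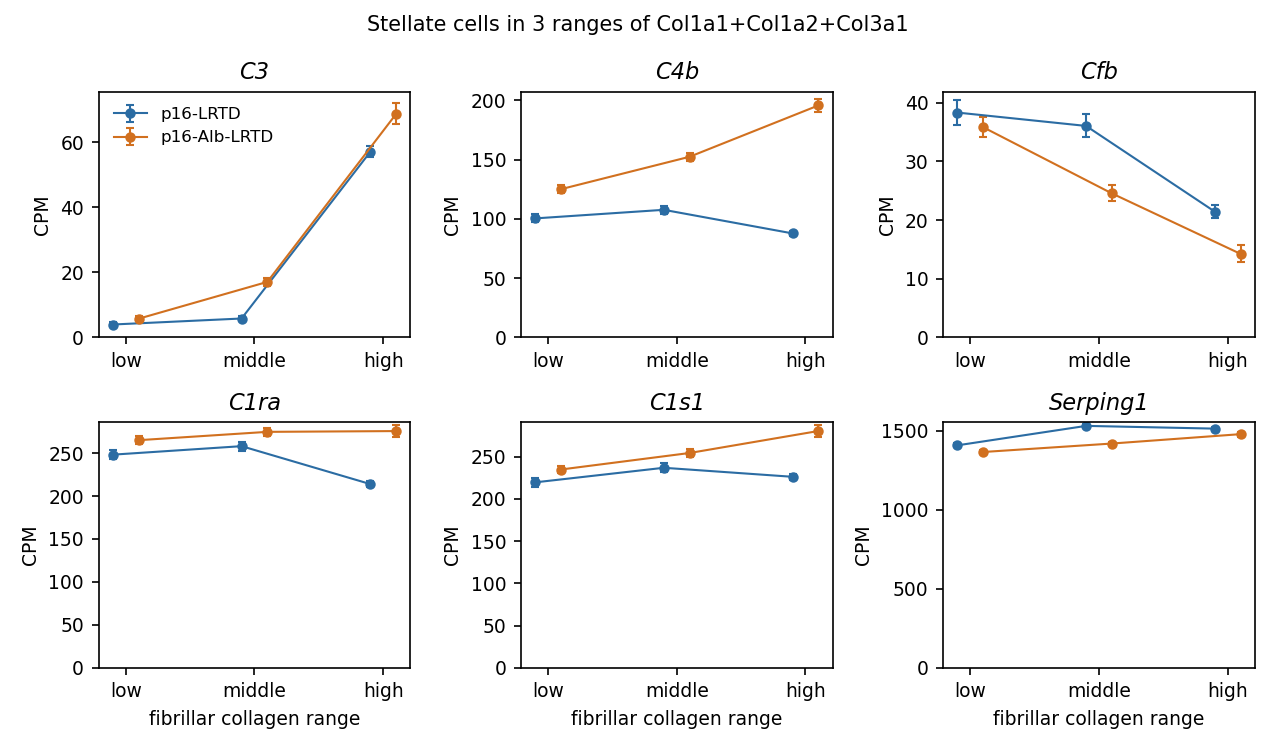
Level (CPM, axis from 0) of 6 genes in stellate cells of the low, middle and high range of fibrillar collagen transcripts, for p16-LRTD (blue) and p16-Alb-LRTD (orange), with 95% Poisson intervals of counting error. C3 is highest in the high range of both libraries (57.1 and 68.7 CPM), C4b is highest in the high range of p16-Alb-LRTD (195.6 CPM) but not of p16-LRTD (87.7 CPM), and Cfb is lowest in the high range of both.

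C3 encodes the central component of the cascade. In stellate cells it was at 31.6 CPM (30.7 to 32.6) in the control and 23.0 CPM (22.1 to 23.8) in p16-Alb-LRTD (log2 ratio -0.46, interval -0.53 to -0.39). The sign of that ratio depended on the cells that were counted. Within each collagen range C3 was higher in p16-Alb-LRTD: 3.99 and 5.77 CPM in the low range, 5.84 and 17.1 CPM in the middle range and 57.1 and 68.7 CPM in the high range, with log2 ratios of 0.53 (0.23 to 0.84), 1.55 (1.33 to 1.78) and 0.27 (0.18 to 0.35). With both libraries given the same shares of the 3 ranges the ratio was 0.45. The high range, where C3 was highest, held 44.7% of the control's stellate cells and 19.9% of those of p16-Alb-LRTD.

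C3 was also the member most unevenly distributed over stellate cells. The 79 stellate cells of the control richest in C3 held 64.7% of its stellate UMIs and the 67 richest of p16-Alb-LRTD 46.1%, with up to 425 and 58 UMIs in a cell. For C1ra these shares were 3.21% and 3.08%. At 5000 UMIs 4.66% (4.20% to 5.15%) and 5.68% (5.14% to 6.27%) of stellate cells had a C3 UMI, a share in the opposite order to the CPM, from which no order is read. The 75 and 39 stellate cells that also passed the fibroblast or mesothelial gate had C3 at 555 and 377 CPM and held 19.2% and 8.80% of the stellate UMIs. Without them C3 was at 25.8 and 21.1 CPM, a log2 ratio of -0.29.

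The cells with fibroblast or mesothelial genes and no other gate had C3 at 6061 CPM (5950 to 6173) in the control and 7903 CPM (7714 to 8095) in p16-Alb-LRTD, from 11464 and 6673 UMIs in 77 and 28 cells. Among them Wt1, a mesothelial transcription factor, was at 758 and 496 CPM, Upk3b at 208 and 230 CPM, Krt19 at 254 and 181 CPM and Clec3b, a fibroblast gene, at 171 and 116 CPM, so that both kinds of marker were present. Of the 10 genes of that marker list, which includes the gate genes, 3 were called higher and 3 lower in p16-Alb-LRTD, where 1 had 0 UMIs. Over all cells of that gate (155 and 67), 66.2% (58.2% to 73.7%) and 67.2% (54.6% to 78.2%) of thinned cells had a C3 UMI. Across stellate cells too the gene most like C3 was Wt1 (r = 0.54 and 0.49), followed by Svep1 (0.49 and 0.48), Gas6 (0.47 and 0.47), Alcam (0.42 and 0.41) and Plxna4 (0.43 and 0.40). Hepatocytes also express C3. Barcodes rich in hepatocyte genes (Alb, Apoa1, Ttr and Fgb, at least 20), taken without the filters, numbered 132 and 122, of which 9 and 5 passed the filters. Their median depth was 1123 and 850.5 UMIs. They had 7.01 and 26.5 C3 UMIs per 100 UMIs of Alb, the albumin gene, on 39923 and 4789 Alb UMIs, with C3 at 1238 and 1438 CPM. Stellate cells had 244 and 308, Kupffer cells 203 and 288 and endothelial cells 59.9 and 24.9, so in endothelial cells of p16-Alb-LRTD the ratio was no higher than in those barcodes.

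The cells with fibroblast or mesothelial genes and no other gate were rich in other members too. C1s1 was at 1182 and 1095 CPM, C1ra at 400.2 and 529 CPM, C4b at 190.3 and 289 CPM and Serping1 at 1670.1 and 1576 CPM. Cfb was at 141 (125 to 159) and 302 (266 to 341) CPM, a log2 ratio of 1.10 (0.84 to 1.35), and C4b had a log2 ratio of 0.60 (0.36 to 0.84). The C1q chains were between 2.37 and 5.92 CPM. These values rest on 77 and 28 cells. Over all 155 and 67 cells of the gate, 40.6% and 34.3% had a Cfb UMI without thinning, in the opposite order to the CPM. After thinning to 5000 UMIs these shares were 23.4% (16.9% to 30.9%) and 29.9% (19.3% to 42.3%).

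**Figure D5:**
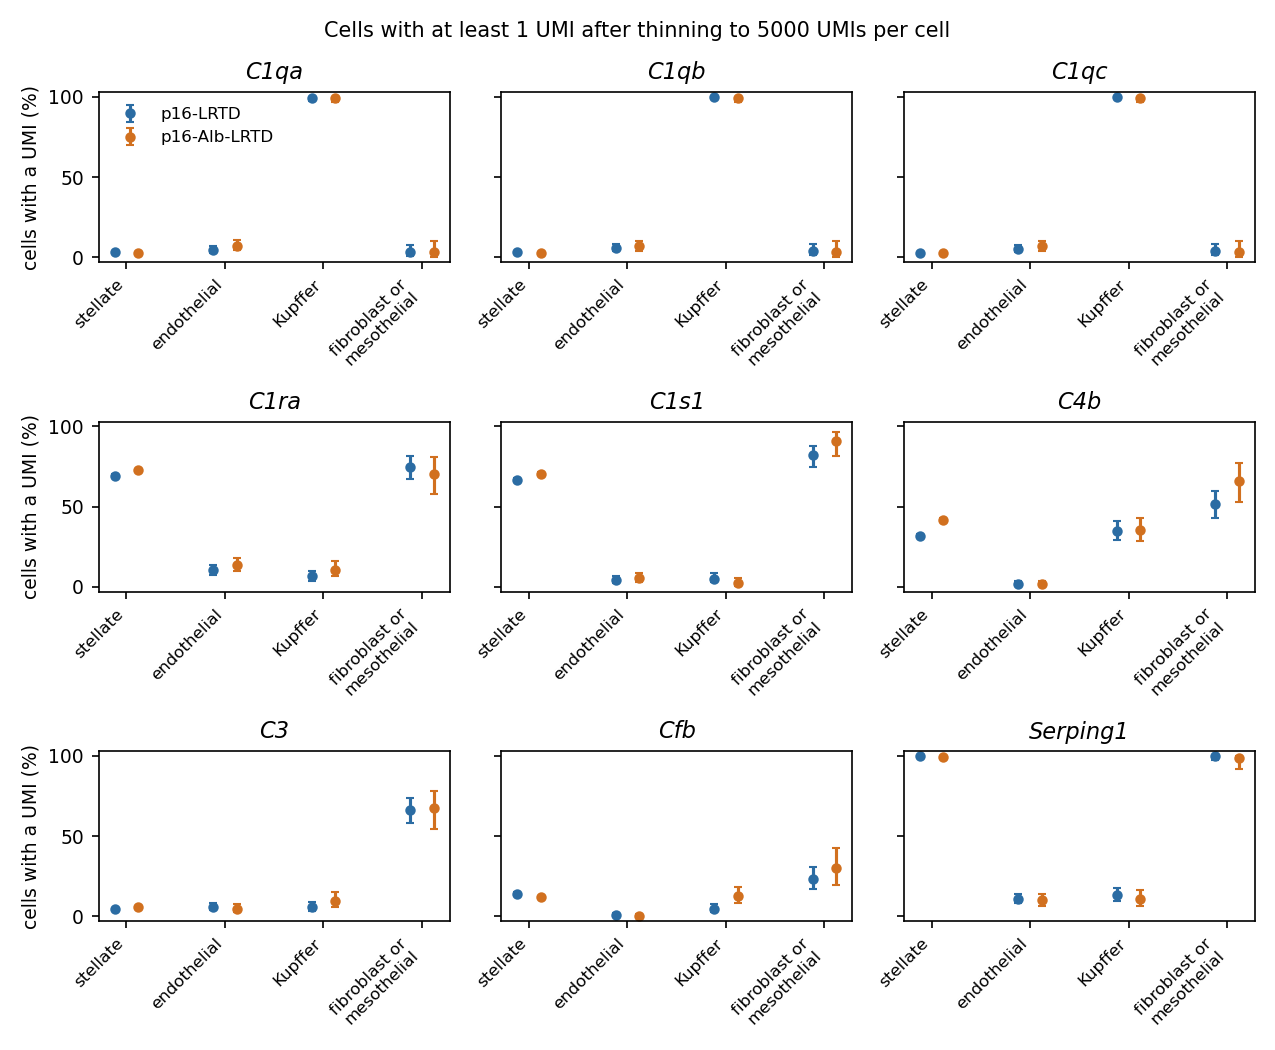
Share of cells with at least 1 UMI of each gene (%) after thinning to 5000 UMIs, in stellate, endothelial and Kupffer cells and in all cells past the fibroblast or mesothelial gate, for both libraries, with 95% Clopper-Pearson intervals. C3 is in 66.2% and 67.2% of fibroblast or mesothelial cells and at most 9.60% of the other classes, and C4b is in stellate, Kupffer and fibroblast or mesothelial cells but not in more than 1.67% of endothelial cells.

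Cfb encodes factor B, the protease of the alternative route. In Kupffer cells it was at 9.76 CPM (7.41 to 12.6) in the control and 26.4 CPM (21.8 to 31.6) in p16-Alb-LRTD, from 58 and 118 UMIs, a 2.70-fold ratio (log2 1.44, interval 0.97 to 1.91). This was the largest ratio of any member in the 3 classes before alternatives are considered, and it held under all 13 alternatives, from 1.12 to 1.56. At 5000 UMIs, 4.68% (2.51% to 7.86%) and 12.4% (7.96% to 18.2%) of Kupffer cells had a Cfb UMI, with unthinned shares of 15.5% and 32.0% at median depths of 19514 and 25101.5 UMIs. The 2 richest of the 178 Kupffer cells of p16-Alb-LRTD held 16.1% of its Cfb UMIs. Cfb in Kupffer cells stood at 33.5% and 98.2% of its stellate level.

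In stellate cells Cfb showed no such difference. It was at 29.1 CPM (28.2 to 30.0) in the control and 26.9 CPM (26.0 to 27.8) in p16-Alb-LRTD (log2 ratio -0.12, interval -0.18 to -0.05). Within the collagen ranges the ratios were -0.10, -0.55 and -0.59 from low to high, and the level was lower at higher collagen in both libraries, from 38.3 to 21.4 CPM in the control and from 35.8 to 14.2 CPM in p16-Alb-LRTD. The genes most like Cfb over stellate cells were Colec11 (r = 0.23 and 0.31), Angptl6, Sod3, Ecm1 and Vipr1. Endothelial cells had 11 and 4 Cfb UMIs, too few to compare.

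The endothelial calls rested on very few cells. C3 was at 30.5 CPM (26.3 to 35.2) in the control and 13.6 CPM (10.2 to 17.7) in p16-Alb-LRTD. Serping1 was at 40.8 (35.9 to 46.1) and 17.6 (13.7 to 22.2) CPM, and C1s1 at 16.4 (13.4 to 19.9) and 9.29 (6.54 to 12.8) CPM. In p16-LRTD, 2 of the 430 endothelial cells also passed the fibroblast or mesothelial gate and held 71.3% of the C3, 48.5% of the C1s1 and 33.9% of the Serping1 UMIs. Of the 283 endothelial cells of p16-Alb-LRTD, 0 passed it. Without those cells the log2 ratios went from -1.17 to 0.61 for C3, from -0.82 to 0.12 for C1s1 and from -1.21 to -0.63 for Serping1. The summed fibrillar collagen level of the endothelial class was 634 and 41.7 CPM. Without collagen-rich cells, those past a cut of 5 fibrillar collagen UMIs per 10000 UMIs, the ratios were 0.59, 0.30 and -0.28. That cut left out 12 cells of p16-LRTD and kept all 283 of p16-Alb-LRTD, so cells with fewer such UMIs stayed in.

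Few cells also set the sign of C3 in Kupffer cells. A single Kupffer cell of p16-LRTD past the fibroblast or mesothelial gate held 47.0% of the C3, 25.4% of the C1s1 and 11.9% of the Serping1 UMIs, and without it the log2 ratio of C3 went from -0.33 to 0.57. Over the 13 alternatives it ran from -0.74, with a gate 1.5 times as high, to 2.32, among cells of 10000 to 30000 UMIs, and had the opposite sign in 5. Serping1 was at 29.8 and 20.6 CPM and C1s1 at 9.92 and 9.17 CPM in Kupffer cells, neither of them past 1.5-fold. With cells past more than 1 gate kept both were, at -1.01 and -0.76. Serping1 was also past it with a gate 1.5 times as high (-0.68) and without cells with infiltrating macrophage genes (-0.61).

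Of 43 further complement genes, 42 were listed, and 14 reached 5 CPM in stellate cells, 15 in endothelial and 19 in Kupffer cells. In stellate cells 0 were called higher and 1 lower, Vtn (vitronectin, an inhibitor of the terminal complex) at 41.3 and 20.7 CPM. The median log2 ratio of the 14 was -0.07, and of all genes in these cells 3.03% were called higher and 3.05% lower. C2, the other substrate of C1s, was at 122 and 144 CPM there. Masp1, a protease of the lectin route, was at 1364 and 1294 CPM. Of the terminal components, C6 was at 108 and 99.6 CPM and C7 at 34.7 and 37.7 CPM.

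In Kupffer cells 3 further genes were called higher and 3 lower, against 5.21% and 6.83% of all genes, and the median of the 19 was -0.0019. The higher ones were Cd55, a membrane regulator that dismantles convertases, at 29.4 and 80.9 CPM (log2 1.46, interval 1.19 to 1.73), C2 at 27.2 and 49.2 CPM (0.85, interval 0.55 to 1.15) and C1rl at 5.05 and 7.60 CPM. Properdin (Cfp), which stabilises the alternative convertase that factor B forms, was at 493 and 685 CPM (0.47, interval 0.40 to 0.55), and C6 at 421 and 575 CPM. The lower ones were Itgax, a chain of complement receptor 4, at 52.8 and 16.8 CPM, Cd93 at 30.3 and 13.0 CPM and Masp1 at 16.3 and 8.05 CPM. The receptors for the C3a and C5a fragments differed little: C3ar1 was at 275 and 264 CPM and C5ar1 at 134 and 143 CPM. Vsig4, a C3b receptor that is also a gate gene, was at 2579.6 and 2552 CPM.

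In endothelial cells 2 further genes were called higher and 3 lower, against 6.44% and 13.5% of all genes. The higher ones were C2, at 11.7 and 17.8 CPM, and 1 gene not reported here. The lower ones were Clu at 41.1 and 16.1 CPM, Susd4 at 11.5 and 7.03 CPM and Lrp1 at 15.1 and 9.29 CPM. Whether these calls rested on the endothelial cells past the fibroblast or mesothelial gate, or on the collagen-rich ones, was not tested. The membrane regulators Cd55 (825 and 845 CPM) and Cd59a (250.2 and 248 CPM) had ratios within counting error of 1. The median of the 15 genes was -0.01.

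Gene lists known to be induced beside complement also differed between the libraries. Over all genes, 3.03% were called higher and 3.05% lower in stellate, 5.21% and 6.83% in Kupffer and 6.44% and 13.5% in endothelial cells. Of 12 interferon-stimulated genes, all at 5 CPM or more, 10 were called higher in p16-Alb-LRTD and 1 lower in stellate cells (median log2 0.996), 11 higher and 1 lower in Kupffer cells (1.35) and 7 higher and 0 lower in endothelial cells (0.84). Of 12 acute phase and NF-kappaB genes, 9 reached 5 CPM in stellate, 10 in Kupffer and 9 in endothelial cells. Of these, 4 were called higher and 1 lower in stellate cells, 7 higher and 0 lower in Kupffer cells and 1 higher and 2 lower in endothelial cells. The gene called lower in stellate cells was Saa3, at 19.4 and 4.44 CPM. Saa3 was also called lower in endothelial cells (83.8 and 6.03 CPM) but higher in Kupffer cells (106 and 173 CPM). Genes induced by tissue dissociation were higher as well, 8 of 12 called in stellate, 5 of 12 in Kupffer and 11 of 12 in endothelial cells, with 0 lower. Their part in the C4b and Cfb values was not tested.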

How the data were processed

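For each of the 2 libraries (1 per genotype) the authors deposited unnormalised UMI counts of every gene in every barcode, made with Cell Ranger 7.0.1 on mm10 per the submitters' processing notes. All further values were computed from them. The members and all gene lists were chosen with earlier results of these data known. Following the study's limits, barcodes with over 5% mitochondrial UMIs, under 2000 or over 7000 genes, or over 50000 UMIs were left out, which kept 80.8% and 84.2%. No doublet caller was run. Cells past more than 1 gate were left out of the classes instead.

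Within a library, the counts of all cells of a class were added up and scaled to CPM. Intervals, all at 95%, were exact Poisson for levels, exact conditional for ratios and Clopper-Pearson for shares. Summed counts make deep cells weigh more. Reads counted at 3′ ends carry no length correction, so levels were compared within a gene. Neither genotype had a replicate, so nothing was tested. For shares, cells were thinned to 5000 UMIs, which left out 16 and 7 shallower stellate cells. Named genes were the 9 members, members of the further complement list at 5 CPM or more (1 of them is not reported here), and the 5 genes with the highest lower r over the 2 libraries (at least 20 CPM). Outside this rule Gpnmb, Marco, Lyz2, Upk3b, Krt19, Clec3b and Wt1 (as a marker) were named from the marker lists after their values were seen, as was Saa3 from the acute phase and NF-kappaB list. Identifiers of 31011 features matched GENCODE vM21. Alternatives covered the cell filter, the mitochondrial limit (10%), the gates, cells past more than 1 gate, per-cell means, TMM (edgeR 4.0.16, R 4.3.3) and median-of-ratios scaling, depth, the CPM minimum (1 CPM), other cell types, cycling cells and collagen. The intervals were tested on simulated data. Python 3.11.15, NumPy 2.4.6 and SciPy 1.17.1 were used.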

Additional observations from a re-analysis of the deposited data

Results flagged for a closer look

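For 5 members the libraries differed in opposite directions in different cell classes, each with a counting interval that left out 0. With 1 library per genotype the difference between classes was not tested. C1qa had a log2 ratio of -0.34 in stellate and 0.29 in Kupffer cells, C1qb of -0.51 and 0.22, and C1qc of -0.42 and 0.20. The stellate levels of these 3 genes, between 5.09 and 8.06 CPM, are at or under 0.31% of the Kupffer level, and over the alternatives the stellate ratios ran from -0.66, -0.91 and -0.89 (cells past more than 1 gate kept) to -0.07, -0.14 and -0.05 (cells of 10000 to 30000 UMIs). Cfb had a log2 ratio of -0.12 in stellate and 1.44 in Kupffer cells. C1s1 had a log2 ratio of 0.15 in stellate and -0.82 in endothelial cells, and the latter turned to 0.12 without 2 cells of p16-LRTD.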

How the results depend on the processing

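No paired analysis was possible because there was a single library of either genotype. Of 324 alternative values of the 27 member ratios, 245 stayed within the counting interval, 71 moved beyond it and 8 reversed a call. In endothelial cells C3 went to 0.50 with no filter on cells, 0.61 without fibroblast, mesothelial and hepatocyte-rich cells and 0.59 without collagen-rich cells. C1s1 went to 0.12 and 0.30 under the last 2 of these and to 0.54 with cells past more than 1 gate kept, where Serping1 went to 0.37 and C1ra in Kupffer cells to -0.21. Why cells past more than 1 gate had this effect was not tested. An opposite sign was seen in 12 of the 27 ratios, of which 4 had been called. The 2 alternatives that left out cells with infiltrating macrophage genes or collagen-rich cells were chosen after seeing the data.

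In stellate cells the number of members past 1.5-fold was 1, and 4 with cells past more than 1 gate kept and 3 with equal collagen shares. In endothelial cells it was 3, but 1 with no cell filter, 1 with per-cell means, 1 without collagen-rich cells (C3, higher), 5 with gates 1.5 times as high, 4 at a minimum of 1 CPM and 2 without fibroblast, mesothelial and hepatocyte-rich cells (C3 higher, Serping1 lower). With cells past more than 1 gate kept it was 3, but with C4b and C1ra (higher) in place of C1s1 and Serping1. In Kupffer cells it was 2, 4 with those higher gates and 3 with cells past more than 1 gate kept (C1s1 and Serping1 lower), with Csf1r left out of the gate or without collagen-rich cells. Cfb was called higher there under all 13 alternatives, but C1ra was not with cells past more than 1 gate kept, among cells of 10000 to 30000 UMIs or without cells with infiltrating macrophage genes. Thinning to 3000 in place of 5000 UMIs lowered the shares with a UMI to 22.4% and 31.0% (C4b, stellate), 3.34% and 4.33% (C3, stellate) and 2.47% and 6.18% (Cfb, Kupffer). Scaling by TMM or median-of-ratios changed no call. Depth limits Cfb in endothelial cells, at 11 and 4 UMIs.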
